A study of Mus musculus with 22 samples.

Results

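Fibroblast growth factor (FGF) signaling was described across the developing mouse trachea by 10 genes: the ligand genes Fgf7, Fgf9, Fgf10 and Fgf18, the receptor genes Fgfr1, Fgfr2, Fgfr3 and Fgfr4, and the response genes Etv5 and Spry2. They were chosen by symbol, and each of the 10 was found among the 26202 symbols of the count table. Several lines of that table, here called entries, can share a symbol, and their counts were summed per symbol. Levels are given as CPM, the count of a gene relative to the total of its library with TMM scaling over the libraries used, which compares a gene between libraries but not 1 gene with another.

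RNA was sequenced from pools of 5 tracheas, either whole at the embryonic stage E11.5 or sorted into 3 populations at E13.5. The E11.5 groups were Wnt5a f/f controls with 5 libraries and Dermo1Cre;Wnt5a f/f mutants with 4, in which the Cre recombinase deletes Wnt5a in the splanchnic mesoderm, so that the epithelium keeps it. At E13.5, cells stained for EpCAM were collected as epithelium (2 libraries), cells with the smooth muscle reporter gamma SMA eGFP as muscle (2 libraries) and cells with neither as chondroblasts (2 libraries). All E13.5 mice carried that reporter. The sorted controls are labelled Bmp4 f/f or Notum 300/300, which the column names do not tell apart, and the E13.5 mutants (3 chondroblast libraries) are Notum 150/150, a loss of Notum. Libraries are lettered within a group. Libraries A of the sorted control populations carry an earlier date in their names, and libraries B and all Notum mutants a later date.

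FGFs are secreted ligands that bind receptor tyrosine kinases together with heparan sulfate and signal through the RAS and ERK cascade. In the embryonic airway, Fgf10 made by the mesenchyme acts on the epithelium, and Fgf9 and Fgf18 act on the mesenchyme, while in cartilage Fgfr3 restrains chondrocyte growth. Transcription factors of the Etv group and Sprouty proteins are induced by the pathway, and Sprouty proteins dampen it in return. The IIIb and IIIc forms of a receptor bind different ligands: Fgfr2 IIIb is the epithelial form and binds Fgf7 and Fgf10, and Fgfr2 IIIc is the mesenchymal form and binds Fgf9 and Fgf18.

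The libraries held 6880660 to 21678177 counts, so that 3 counts, taken as the limit that a count of 0 allows, correspond to 0.139 to 0.434 CPM. Such limits cover counting error only. By the marker genes of the 3 populations, the sorted libraries fitted their labels. The summed CPM of 11 epithelial genes was 4070 to 5048 in epithelium and at most 55.2 in the other sorted libraries, that of 8 smooth muscle genes was 11080 to 14150 in muscle and at most 116 elsewhere, and that of 11 cartilage genes was 3592 to 5935 in chondroblasts, 1273 to 2764 in muscle and 408 to 506 in epithelium. Chondroblasts, sorted as cells with neither marker, held 204.5 to 356 CPM of 6 nerve and glia genes, and muscle and epithelium 14.7 to 151. Of 7 endothelial genes chondroblasts held 49.4 to 114 CPM, and muscle and epithelium 1.44 to 38.2. The chondroblast libraries are thus not of chondroblasts alone. Libraries within a group also differed in other cell types. Muscle A held 768 CPM of 8 skeletal muscle genes against 67.6 in muscle B. Control chondroblast A held 75680 CPM of 7 red cell genes against 7894 in B and 7378 to 10080 in the Notum mutants. Of the same red cell genes, muscle B held 3541 CPM against 10.96 in muscle A. Epithelium B held 550.7 CPM of them against 14.47 in epithelium A. Of the nerve and glia genes, muscle B held 151 CPM against 14.7 in muscle A. Of 5 heart muscle genes, muscle A held 179.3 CPM against 67.97 in muscle B. Notum mutant A held 73.13 CPM of the heart muscle genes against 11.98 and 16.93 in mutants B and C.

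Fgfr2, the receptor of the epithelium for mesenchymal ligands, is described first by how its counts fell on its entries. Fgfr2 lies on the minus strand at chr7:130162451-133123350 of GRCm38, the assembly also called mm10. Its IIIb and IIIc forms differ in the part of the third immunoglobulin-like domain that contacts the ligand.

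The count table lists Fgfr2 as 3 entries that carry the symbol but no transcript name, so none of them can be assigned to either form. The third entry held 66.1% and 58.2% of the Fgfr2 counts in epithelium A and B. It held 15.4% and 2.19% in muscle A and B, 5.34% and 4.97% in control chondroblasts A and B, and 1.80%, 4.34% and 6.89% in the Notum mutants. The lowest epithelial library was thus above the highest mesenchymal library on both dates. The first entry ran the other way, with 3.17% and 4.29% in epithelium and 25.1% to 34.1% in the other sorted libraries. The second entry held 30.7% and 37.5% in epithelium and 54.8% to 72.7% elsewhere. In the whole E11.5 tracheas, which hold epithelium and mesenchyme together, the third entry held 36.3% to 59.6% in controls and 32.4% to 72.0% in Wnt5a mutants. All 9 lay above the other sorted libraries, and 3 of them (control E and mutants A and B) reached the range of epithelium or passed it. Their summed epithelial genes were 289 to 837 CPM.

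**Figure D1:**
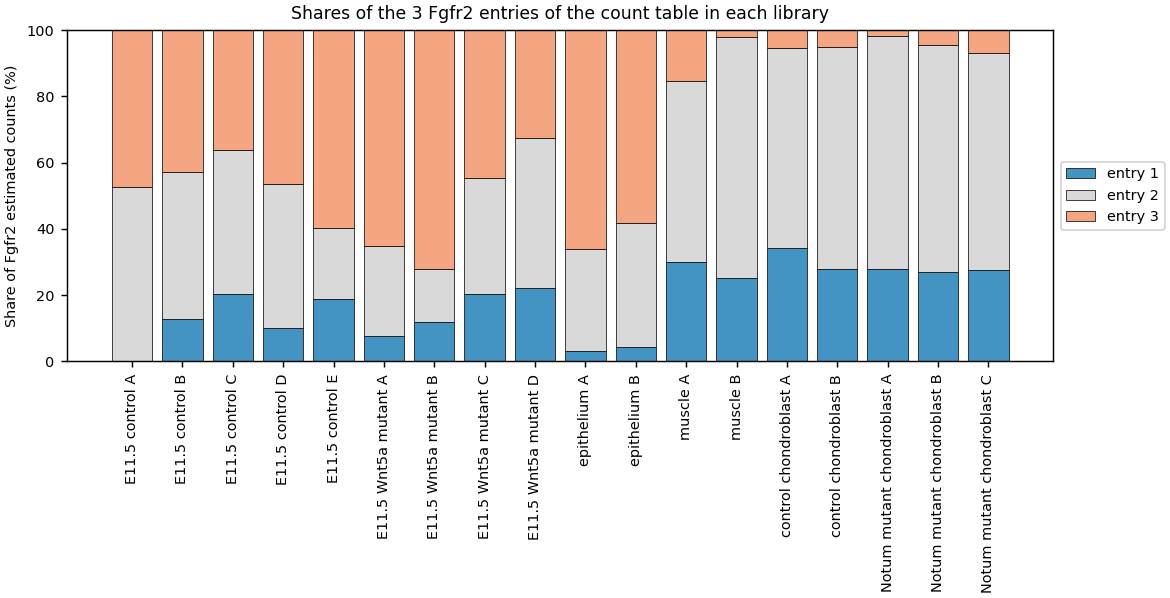
Share of the Fgfr2 estimated counts (percent, y axis) that falls on each of the 3 Fgfr2 entries in each of the 18 libraries (x axis). The third entry takes 58.2% to 66.1% in epithelium and 1.80% to 15.4% in muscle and chondroblasts, and the first entry takes 3.17% to 4.29% in epithelium and 25.1% to 34.1% in the other sorted libraries.

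The entries were fitted singly with edgeR, a step added after the data were seen. The third entry was higher in epithelium than in muscle by 4.03 on the log2 scale (SE 0.79, 16.4-fold) and higher than in chondroblasts by 3.95 (SE 0.78, 15.4-fold). With 2 libraries a side, neither passed the Benjamini-Hochberg adjustment over 22421 entries (adjusted p = 0.0634 and 0.0821), where 1.77% and 1.28% of all entries were called. The first entry differed by -1.94 (SE 0.62) and -2.60 (SE 0.63), with adjusted p = 0.198 and 0.135. A test in edgeR of the use of an entry relative to the others of its symbol gave adjusted p = 0.485 for the third entry against both. That test called 0.0859% and 0.00715% of 13977 entries. Between muscle and chondroblasts the third entry differed by -0.09 (SE 0.71).

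Summed over entries, Fgfr2 was 226 and 327 CPM in epithelium, 108 and 199 CPM in muscle, and 112 and 337 CPM in control chondroblasts. Epithelium and chondroblasts overlapped, and the log2 difference between them was 0.32 (SE 0.54). Per kilobase of the longest coding transcript, Fgfr2 was the highest of the 4 receptors in each of the 6 groups by mean, with 64.0 ± 16.5 CPM per kb in epithelium (SD, n = 2), 35.6 ± 14.9 in muscle (n = 2), 52.1 ± 36.8 in control chondroblasts (n = 2) and 66.5 ± 18.6 in Notum mutant chondroblasts (n = 3). The next receptor in that order was Fgfr3 in epithelium at 23.4 ± 5.59 CPM per kb and Fgfr1 in muscle at 20.2 ± 4.86 and in control chondroblasts at 27.6 ± 12.2. In chondroblasts the spread of Fgfr2 covered the Fgfr1 mean, so the order of those neighbours is not resolved. At E11.5, Fgfr2 and Fgfr1 were alike within their spread, at 14.2 ± 7.67 and 11.9 ± 6.33 CPM per kb in controls (n = 5), and Fgfr4 was lowest at 0.489 ± 0.0773.

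The 3 other receptors each had a different order across the sorted populations. Fgfr1, the receptor of mesenchymal tissues, lies at chr8:25513654-25575718 of GRCm38. It was lowest in epithelium, at 31.5 and 49.4 CPM, against 84.7 and 119 CPM in muscle and 95.5 and 182 CPM in control chondroblasts. Neither epithelial library reached a mesenchymal one. The log2 difference of epithelium was -1.33 from muscle (SE 0.41, adjusted p = 0.158) and -1.76 from chondroblasts (SE 0.42, adjusted p = 0.0963). The populations share their dates, and with date as a term in the edgeR fit the difference from chondroblasts passed (-1.72, SE 0.25, adjusted p = 0.04135), while that from muscle did not (-1.35, SE 0.25, adjusted p = 0.0620).

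Fgfr3 lies at chr5:33721674-33737068 of GRCm38. It was 116 and 82.5 CPM in epithelium, 12.03 and 44.2 CPM in muscle, and 90.8 and 101 CPM in control chondroblasts. Muscle was the low population on both dates, while epithelium and chondroblasts overlapped. Epithelium exceeded muscle by 1.83 on the log2 scale (SE 0.59, adjusted p = 0.174), and muscle was below chondroblasts by a log2 difference of -1.76 (SE 0.59, adjusted p = 0.804). The value in muscle A was the lower of the pair, and that library carried the skeletal muscle genes. Muscle A also held less of the summed cartilage genes, at 1273 CPM against 2764 CPM in muscle B. The part of either in the Fgfr3 values was not tested. Without muscle A the excess of epithelium over muscle was 1.19 (SE 0.38).

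Fgfr4 lies at chr13:55152640-55168759 of GRCm38 and had the reverse order of Fgfr3 between muscle and epithelium. It was 21.9 and 20.95 CPM in muscle, 14.6 and 7.70 CPM in control chondroblasts, and 2.78 and 0 CPM in epithelium, where a count of 0 in epithelium B allows up to 0.196 CPM. The 3 populations did not overlap. The share of all genes that separate in this way was not counted for the sorted populations, which have 2 libraries each. A lack of overlap among them therefore sets neither Fgfr4 nor any other gene apart. Muscle differed from chondroblasts by 0.96 on the log2 scale (SE 1.645). The log2 difference of epithelium from muscle was -3.91 (SE 1.84, adjusted p = 0.325) and from chondroblasts -2.95 (SE 1.76, adjusted p = 0.487).

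No member passed an adjusted p of 0.05 between the sorted populations in edgeR without the date term. Of the 10, 8 could be tested in that fit, and Fgf7 and Fgf9 fell below its limit, a level of 1 CPM that over 50% of the libraries in some group had to reach. The share of all 13687 tested genes that passed was 3.58% between epithelium and muscle, 2.74% between epithelium and chondroblasts and 0.132% between muscle and chondroblasts. The study's thresholds for p and fold (unadjusted p under 0.05 and a fold over 1.5) were applied here and below to edgeR p-values. The study took its p-values from DESeq2 and also set a lower limit on FPKM, so its own calls can differ. At these thresholds Fgfr3 was higher and Fgfr1 lower in epithelium than in muscle, where 17.6% of genes passed. Fgfr1 and Etv5 were lower in epithelium than in chondroblasts, where 15.8% passed. Fgfr3 was lower in muscle than in chondroblasts, where 5.47% passed. The 2, 2 and 1 members of 8 are near these shares, so the counts set the members apart from no other genes. The median absolute log2 difference of the 8 was 1.5, 1.01 and 0.82 in the same order, against 0.67, 0.63 and 0.39 over all tested genes. DESeq2 called 1827 of the same 13687 genes between epithelium and muscle, Fgfr1 and Fgfr3 among them (adjusted p = 0.0428 and 0.0292). Between epithelium and chondroblasts it called 1554 genes, with Fgfr1 the only member among them (adjusted p = 0.00329). With 2 libraries a group the biological coefficient of variation of this fit was 66.8%.

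**Figure D2:**
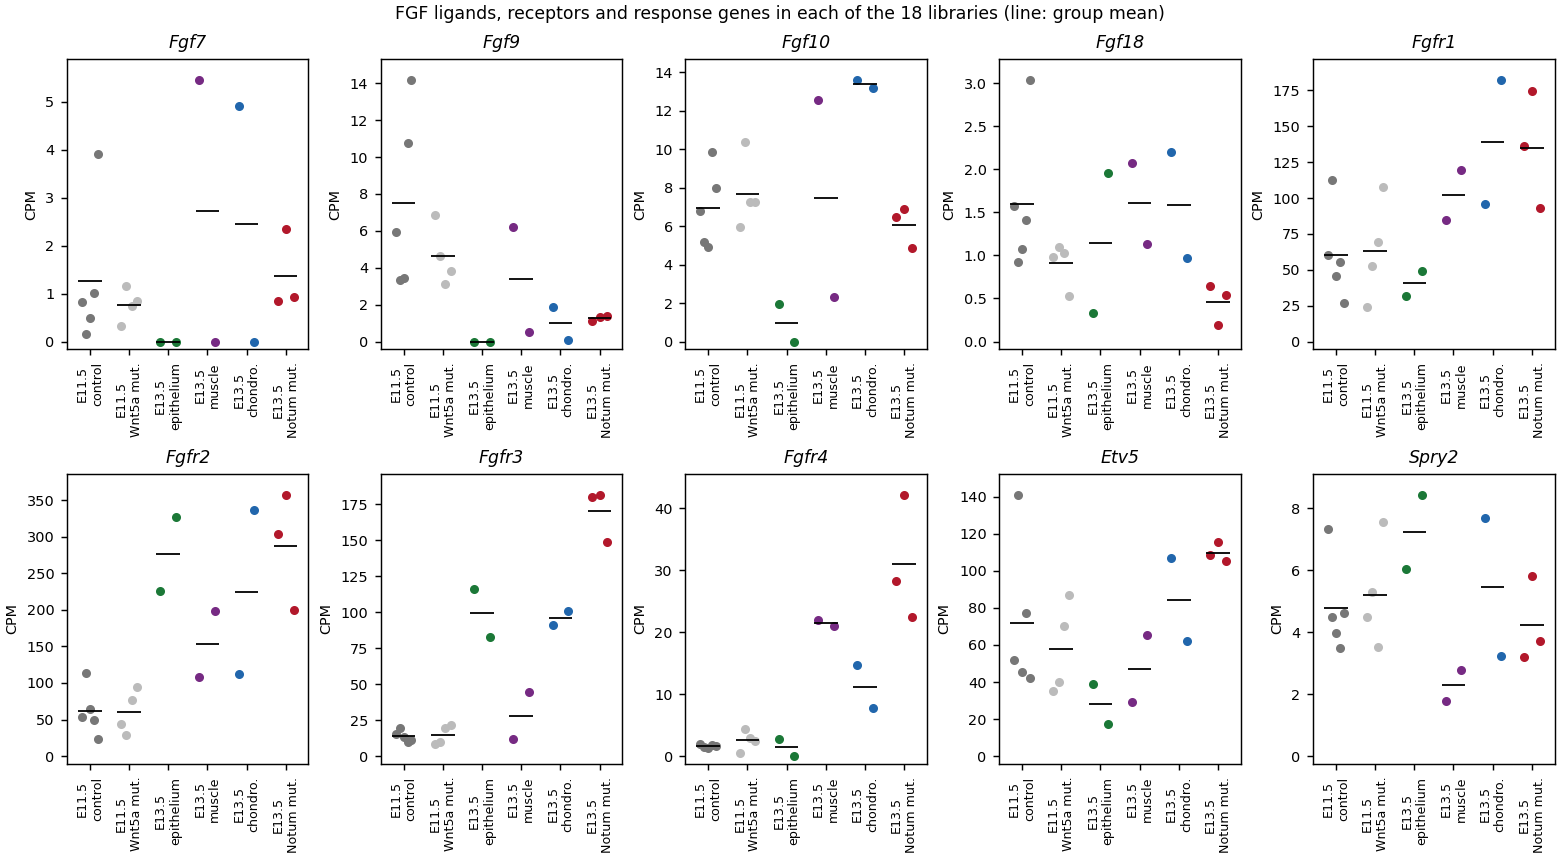
CPM (y axis, linear, a scale for each gene) of the 10 genes in each library (points) of the 6 groups (x axis), with the group mean as a line. Fgf7 and Fgf9 lie at 0 in both epithelial libraries, Fgfr4 at 20.95 and 21.9 CPM in muscle, and Fgfr3 at 149 to 182 CPM in the Notum mutants above 90.8 and 101 CPM in the control chondroblasts.

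The ligand genes were read at low levels, and all 4 were at most 14.2 CPM in any library. Fgf10, at chr13:118669791-118792115 of GRCm38, is the mesenchymal ligand that drives airway outgrowth. It was 13.6 and 13.2 CPM in control chondroblasts, 12.6 and 2.34 CPM in muscle and 1.96 and 0 CPM in epithelium. Both chondroblast libraries lay above the other sorted control libraries, though close to muscle A, and the epithelial libraries were the lowest. Muscle differed from chondroblasts by -0.82 on the log2 scale (SE 1.82), an error larger than the difference. The log2 difference of epithelium was -3.71 from chondroblasts (SE 2.02, adjusted p = 0.445) and -2.89 from muscle (SE 1.95, adjusted p = 0.501). The higher of the muscle values again came from muscle A. Without it the difference of epithelium from muscle was -1.199 (SE 2.28).

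Fgf9, a ligand of epithelium and mesothelium that acts on mesenchyme, was listed at 0 in both epithelial libraries. It was 6.22 and 0.505 CPM in muscle and 1.89 and 0.0747 CPM in control chondroblasts, so that on each date the muscle value was the higher. Taken against the mean limit of 0.170 CPM in epithelium, the muscle mean was at least 19.8-fold higher. Muscle A carries most of that mean. Fgf7, which signals through Fgfr2 IIIb, was also listed at 0 in epithelium, and in control muscle and chondroblasts it was seen in the earlier libraries, at 5.45 and 4.90 CPM, and was 0 in both later ones. The Notum mutant chondroblasts, also of the later date, held 0.835, 2.36 and 0.938 CPM of Fgf7. Fgf18, a ligand of the mesenchyme and of growing cartilage, was 0.335 and 1.96 CPM in epithelium, 2.07 and 1.14 CPM in muscle and 2.20 and 0.972 CPM in chondroblasts. Its 3 populations overlapped, with log2 differences of -0.49 to 0.04.

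The response genes did not share 1 order. Etv5, a transcription factor at chr16:22381309-22439719 of GRCm38, was 38.8 and 17.1 CPM in epithelium, 29.1 and 65.5 CPM in muscle and 107 and 61.9 CPM in control chondroblasts. Chondroblasts lay above epithelium in each pair of libraries (log2 difference of epithelium -1.56, SE 0.59, adjusted p = 0.262). Spry2, an inhibitor of receptor signaling, was 6.04 and 8.43 CPM in epithelium, 1.78 and 2.78 CPM in muscle and 7.66 and 3.21 CPM in chondroblasts. Muscle was the low population for Spry2, with a log2 difference of 1.67 (SE 1.16, adjusted p = 0.512) between epithelium and muscle. In bulk samples such as these, fewer cells of a type and less RNA per cell cannot be told apart.

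Genes around the 10 in the pathway showed differences that passed the adjustment. Among 25 co-receptors, binding proteins and heparan sulfate enzymes, 23 were tested, and between epithelium and muscle 1 was higher and 3 were lower, where 3.58% of all genes passed in either direction. Those lower included the extracellular sulfatases Sulf2 and Sulf1, which remove sulfate from heparan sulfate, with log2 differences of -2.98 (SE 0.23, adjusted p = 0.00367) and -2.79 (SE 0.36, adjusted p = 0.0144). The higher one was Sdc4, a heparan sulfate proteoglycan, at 108 and 131 CPM in epithelium against 14.3 and 26.9 CPM in muscle (2.54, SE 0.44, adjusted p = 0.0346). Between epithelium and chondroblasts 1 was higher and 4 were lower, where 2.74% of all genes passed. Flrt2, a membrane protein that binds FGF receptors, was 63.95 and 69.0 CPM in epithelium against 471 and 521 CPM in chondroblasts (-2.88, SE 0.28, adjusted p = 0.00943), and Sulf1 and Sdc4 differed by -2.72 (SE 0.36, adjusted p = 0.0184) and 2.62 (SE 0.44, adjusted p = 0.0368). The median log2 difference of the 23 was -0.98 from muscle and -0.75 from chondroblasts, against -0.03 and -0.02 over all tested genes.

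Of 12 other response and feedback genes, 7 were tested among the sorted populations, and 1 passed. Spry1, a relative of Spry2, was 57.7 and 73.0 CPM in epithelium, 18.7 and 30.7 CPM in muscle and 3.78 and 6.95 CPM in control chondroblasts. Its groups did not overlap, and epithelium exceeded chondroblasts by 3.63 (SE 0.58, adjusted p = 0.0324) and muscle by 1.41 (SE 0.53, adjusted p = 0.236). Spry1 and Etv5 therefore had opposite orders between epithelium and chondroblasts. Dusp6, a phosphatase that acts on ERK, was 72.7 and 103 CPM in epithelium against 17.9 and 23.2 CPM in muscle (2.10, SE 0.56, adjusted p = 0.111). Etv1, a relative of Etv5, was 0 and 10.7 CPM in epithelium against 33.96 and 43.4 CPM in muscle (-2.83, SE 1.74, adjusted p = 0.456).

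Of 18 other ligand genes, 5 were tested and 0 passed, with 1 at an unadjusted p under 0.05 in each contrast with epithelium. That gene was Fgf1, a ligand of all FGF receptors. It was 23.9 and 67.9 CPM in epithelium, at most 0.189 CPM in muscle and at most 0.920 CPM in control chondroblasts, with a log2 difference of 8.84 from muscle (SE 2.16, adjusted p = 0.0913). Fgf13 and Fgf11, which are kept inside the cell and do not act on receptors, differed from muscle by 1.19 (SE 0.86) and 0.77 (SE 0.65). All 19 genes of the signal path to ERK were tested. The adaptor Shc1 passed as lower in epithelium than in chondroblasts (-1.51, SE 0.25, adjusted p = 0.0363), and 0 passed between epithelium and muscle, where Shc1 differed by -1.22 (SE 0.25, adjusted p = 0.0589). Between muscle and chondroblasts 0 genes of the 4 lists passed, and Spry1 differed by 2.22 (SE 0.55, adjusted p = 0.501).

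**Figure D3:**
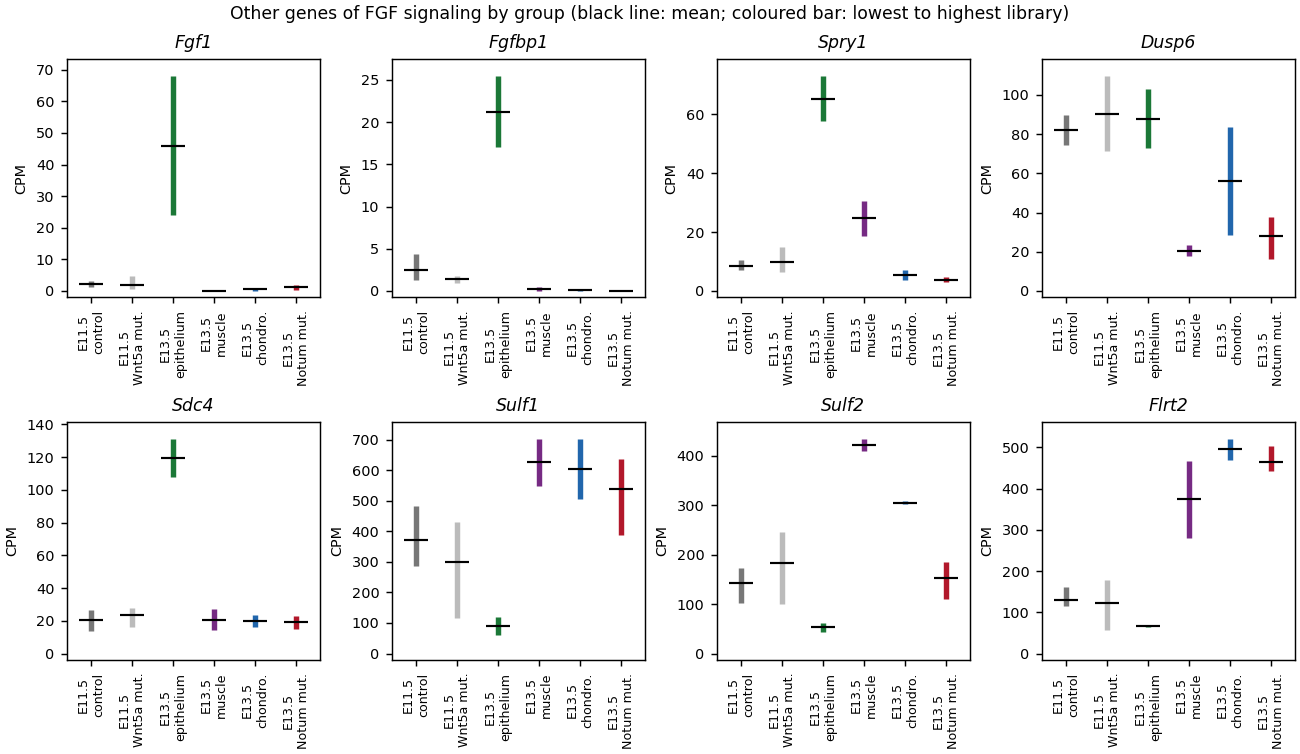
CPM (y axis, linear, a scale for each gene) of 8 other genes of the pathway in the 6 groups (x axis). The black line is the group mean and the coloured bar spans the lowest to the highest library. Spry1, Sdc4 and Fgf1 are highest in epithelium, and Sulf1, Sulf2 and Flrt2 are lowest there.

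The Notum mutant, a loss of a secreted enzyme that inactivates Wnt proteins, was compared with control chondroblasts to see which genes differ between them. As stated above, the column names do not tell the labelled genotypes of the sorted controls apart. Either control library may therefore come from another mouse line than the mutants. The part of mouse line in the differences below was not tested. Notum transcripts themselves did not separate the labels, at 13.8 and 86.1 CPM in controls and 34.0, 35.6 and 13.9 CPM in mutants. Of the 8 members tested, 3 did not overlap between the groups, against 33.6% of all tested genes, so that this count does not set them apart. Fgfr3 and Fgfr4 were higher in each mutant library than in each control library, and Fgf10 was lower. Fgf18, too low to test, was lower in each mutant as well. The summed cartilage genes were also higher in each mutant, at 4795 to 5935 CPM against 3592 and 4295 CPM in controls, and their part in these differences was not tested. Fgfr3 was 90.8 and 101 CPM in controls and 180, 182 and 149 CPM in mutants, a log2 difference of 0.84 (SE 0.14, 1.79-fold). Fgfr4 was 14.6 and 7.70 CPM in controls and 28.3, 42.2 and 22.5 CPM in mutants (1.48, SE 0.40, 2.80-fold). Fgf10 was 13.6 and 13.2 CPM in controls and 6.45, 6.87 and 4.89 CPM in mutants (-1.13, SE 0.34, 2.19-fold lower). The spread of the controls rests on 2 libraries of different dates. These 3 genes were set out first because their groups did not overlap, so that separation is no added support.

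None of these passed the adjustment over all genes in edgeR. The unadjusted p of edgeR was 9.00e-04 for Fgfr3, 0.00885 for Fgfr4 and 0.0155 for Fgf10, and the adjusted p was 0.200, 0.272 and 0.315. Of 14120 genes tested in edgeR, 0% passed an adjusted p of 0.05 and 1762 (12.5%) had an unadjusted p under 0.05. DESeq2 called 526 genes, Fgfr3 and Fgfr4 among them. Of the 8 members tested, 3 passed the study's thresholds, against 8.41% of all genes. Fgf18, at 2.20 and 0.972 CPM in controls and 0.650, 0.196 and 0.543 CPM in mutants, was below the limit for testing, as was Fgf7.

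The other members overlapped between mutants and controls. Fgfr2 was 304, 358 and 200 CPM in mutants (log2 difference 0.35, SE 0.47) and Fgfr1 was 136, 175 and 93.2 CPM (-0.04, SE 0.35). Etv5 was 108, 115 and 106 CPM in mutants, around the level of control A and above that of control B (0.40, SE 0.22, adjusted p = 0.508). Spry2 was 3.20, 5.79 and 3.70 CPM (-0.35, SE 0.59), and Fgf9 was 1.11, 1.33 and 1.38 CPM (0.37, SE 1.16).

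Control chondroblast A differed from all mutants in date and in its red cell genes, so the values without it are given here. Without it, with 1 control left that is assumed to vary like the mutants, Fgfr3 was higher by 0.75 (SE 0.16, adjusted p = 0.0286), Fgfr4 by 2.00 (SE 0.42, adjusted p = 0.0259) and Etv5 by 0.82 (adjusted p = 0.0183), and Fgf10 differed by -1.12 (SE 0.37, adjusted p = 0.0796). In that fit 2540 genes passed. Without control chondroblast B, 0 members passed, Fgfr3 and Fgfr4 were higher by 0.91 (adjusted p = 0.0744) and 1.09 (adjusted p = 0.202), and Fgf10 differed by -1.16 (adjusted p = 0.187). A fit with a date term was run, and like the fit without control chondroblast A it leaves control chondroblast B alone against the mutants. From such fits the parts of date, of red cell RNA and of a possible difference in mouse line cannot be told apart.

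Of the other pathway genes, 0 of 54 tested over the 4 lists passed in the Notum comparison. Those with the smallest p among co-receptors and heparan sulfate enzymes were Sulf2, at 302 and 309 CPM in controls and 110 to 185 CPM in mutants (-0.997, SE 0.22, adjusted p = 0.251), Flrt1, at 7.17 and 8.17 CPM against 15.7 to 22.7 CPM (1.35, SE 0.30, adjusted p = 0.251), and the sulfotransferase Ndst1 (0.66, SE 0.17, adjusted p = 0.269). Among the response genes Spry4, a further Sprouty, was 5.77 and 6.20 CPM in controls and 1.13 to 2.88 CPM in mutants (-1.47, SE 0.61, adjusted p = 0.397), Etv1 differed by 0.48 (SE 0.19, adjusted p = 0.376) and Dusp6 by -0.97 (SE 0.51, adjusted p = 0.479).

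**Figure D4:**
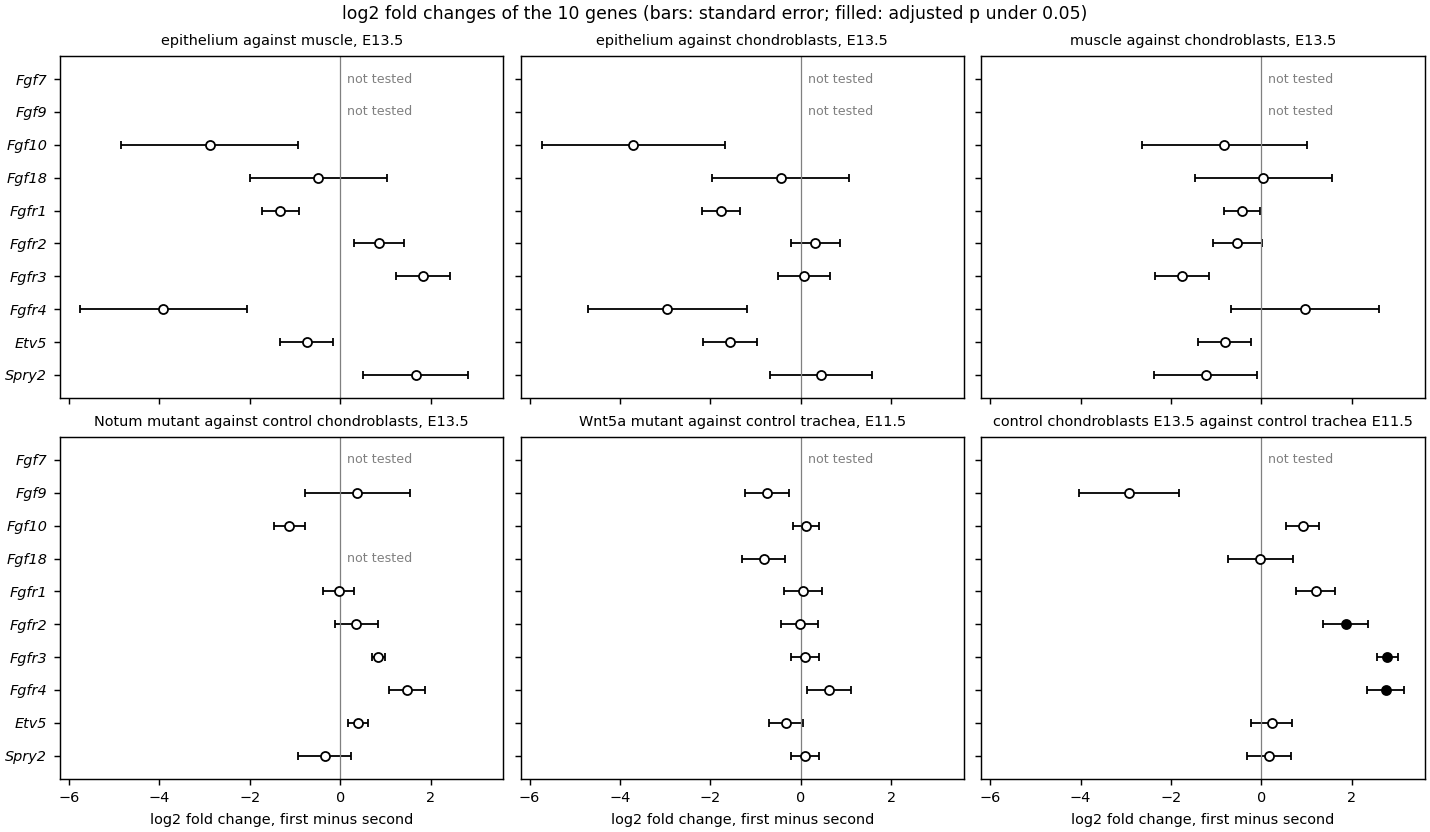
log2 fold change, first group minus second (x axis), of each of the 10 genes (y axis) in the 6 comparisons, with bars of 1 standard error and filled points where the adjusted p was under 0.05. The filled points are Fgfr2, Fgfr3 and Fgfr4 between control chondroblasts at E13.5 and control tracheas at E11.5.

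At E11.5, where the question is what changes when the mesenchyme loses Wnt5a, no difference in the 10 genes was detectable between Dermo1Cre;Wnt5a f/f and control tracheas. Wnt5a itself was 57.7 to 162 CPM in controls and 46.5 to 127 CPM in mutants, so the transcript level does not separate the labels. Of the 9 members tested (Fgf7 was too low), 0 passed the adjustment, where 0.0136% of 14663 genes did, and 0 had an unadjusted p under 0.05, where 672 genes (4.58%) did, and 0 passed the study's thresholds, where 3.72% of genes did. DESeq2 called 0 members and 40 genes. All 9 overlapped between the groups, where 1.26% of tested genes did not, and their median absolute log2 difference was 0.11, against 0.15 over all tested genes.

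The member with the smallest p was Fgf18, at 0.919 to 3.04 CPM in controls (median 1.41) and 0.532, 0.982, 1.03 and 1.10 CPM in mutants, a log2 difference of -0.82 (SE 0.47, adjusted p = 0.9996 in edgeR). Fgf9 was 3.32, 3.42, 5.93, 10.8 and 14.2 CPM in controls and 3.13, 3.83, 4.62 and 6.88 CPM in mutants (-0.75, SE 0.48). Control E, the shallowest library, was the highest control for both genes. Of the controls it also held the fewest cartilage genes by summed CPM (273.7) and the most heart muscle (306.2) and red cell genes (15670). Without control E the difference was -0.45 (SE 0.40) in Fgf18 and -0.35 (SE 0.43) in Fgf9. Fgf10 was 4.92, 5.16, 6.81, 7.96 and 9.84 CPM in controls and 5.95, 7.23, 7.24 and 10.4 CPM in mutants (0.11, SE 0.29).

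The receptors varied widely within each E11.5 group. Fgfr1 ranged from 26.8 to 112 CPM in controls and from 24.0 to 107 CPM in mutants, and Fgfr2 from 24.0 to 114 and from 28.4 to 94.5 CPM. Etv5 ranged from 42.2 to 141 and from 35.0 to 86.9 CPM. The same control, B, was highest for all 3 genes, and the mutant with the same number in its column name, D, was highest among mutants. Control B also held the most cartilage genes by summed CPM (815.4) and the fewest red cell genes (2300) of the controls. Mutant D did so among mutants (1063 and 3424 CPM). The part of cell mixture in these levels was not tested. Fgfr3 ranged from 9.51 to 19.3 and from 8.62 to 21.6 CPM, Fgfr4 from 1.28 to 1.98 and from 0.546 to 4.29 CPM, and Spry2 from 3.48 to 7.33 and from 3.53 to 7.55 CPM. Their log2 differences were 0.08 (SE 0.31), 0.61 (SE 0.49) and 0.09 (SE 0.31). Of the 58 other pathway genes tested, 0 passed. The smallest p was that of Hs6st2, which adds sulfate to heparan sulfate, at 44.8 to 66.2 CPM in controls and 32.7 to 40.9 CPM in mutants (-0.56, SE 0.16, adjusted p = 0.990).

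Between E11.5 tracheas and E13.5 chondroblasts, 3 of the 4 receptor genes rose, and neither response gene passed the test. In this comparison of control chondroblasts with control whole tracheas, stage, sorting and cell mixture cannot be told apart. Of 9 members tested, 3 passed as higher in chondroblasts, where 12.5% of 14728 genes passed in either direction and 7.01% as higher. Fgfr3 was 9.51 to 19.3 CPM at E11.5 (median 13.1) and 90.8 and 101 CPM in chondroblasts, a rise of 2.78 on the log2 scale (SE 0.23, adjusted p = 4.75e-04, 6.85-fold). Fgfr4 was 1.28 to 1.98 CPM (median 1.59) and 14.6 and 7.70 CPM, a rise of 2.75 (SE 0.41, adjusted p = 0.00535, 6.71-fold). For both, each chondroblast library lay above all 5 tracheas. Fgfr2 rose by 1.86 (SE 0.50, adjusted p = 0.0440), but chondroblast A at 112 CPM lay below the highest trachea at 114 CPM, and without chondroblast B the difference was 0.86 (adjusted p = 0.388).

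The remaining members of this comparison did not pass the adjustment. Fgfr1 differed by 1.196 (SE 0.43, adjusted p = 0.10) and Fgf10 by 0.91 (SE 0.36, adjusted p = 0.132), with Fgf10 at 4.92 to 9.84 CPM in tracheas, below both chondroblast libraries. Fgf9 was 3.32 to 14.2 CPM in tracheas and 1.89 and 0.0747 CPM in chondroblasts (-2.93, SE 1.11, adjusted p = 0.116). With these 3, 6 members passed the study's thresholds, against 26.1% of all genes. Etv5 and Spry2 overlapped, with log2 differences of 0.22 (SE 0.45) and 0.16 (SE 0.49), and Fgf18 differed by -0.03 (SE 0.72).

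Of 23 co-receptors, binding proteins and heparan sulfate enzymes tested, 8 were higher in chondroblasts and 2 lower, where 7.01% of all genes passed as higher and 12.5% in either direction. The other 13 did not pass. Flrt2 rose from 114 to 162 CPM in tracheas to 471 and 521 CPM in chondroblasts (1.90, SE 0.16, adjusted p = 5.79e-04), and Gpc3, a proteoglycan of the cell surface, from 1089 to 1693 CPM to 3510 and 3668 CPM (1.39, SE 0.17, adjusted p = 0.00269). Fgfbp1, a carrier of FGFs that was 17.01 and 25.4 CPM in epithelium, fell from 1.33 to 4.34 CPM in tracheas to 0.153 and 0 CPM in chondroblasts (-4.75, SE 1.17, adjusted p = 0.0334). Of the other ligands Fgf11 rose, by 1.80 (SE 0.37, adjusted p = 0.0178), and of the path to ERK Nras fell by 0.55 (SE 0.15, adjusted p = 0.0429). Of 8 response and feedback genes 0 passed, and Dusp4 and Spry1 differed by -2.04 (SE 0.89, adjusted p = 0.164) and -0.70 (SE 0.37, adjusted p = 0.234).

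Genes whose profile over the 18 libraries lay closest to that of a member were found from log2 CPM centred per gene, by the mean absolute difference per library. For Etv5 they were Gli3 at 0.26, Cdc42ep4 at 0.31 and Fzd7 at 0.35 on the log2 scale, where the median gene lay at 0.74. Gli3 is a transcription factor of Hedgehog signaling and Fzd7 a Wnt receptor. For Fgf10 they were Zfp874b at 0.36, Rnf150 at 0.41 and B3galt4 at 0.42 (median 1.01), for Fgf18 Sdhaf3 at 0.42, Magohb at 0.45 and Kyat3 at 0.47 (median 0.80), and for Fgfr2 Ntm at 0.44, Ust at 0.44 and Zhx2 at 0.45 (median 1.09). These are descriptions of likeness over 18 libraries that differ in depth, stage and date.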

How the data were processed

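The values the authors deposited are expected counts: fractional estimates of reads, not normalized, in 1 table of 47248 entries and 22 columns with replicates kept apart. RNA was copied from polyadenylated transcripts with SMART-Seq v4 and made into Nextera XT libraries. The submitters' processing notes name mm10, Partek and limma, and the study's methods name DESeq2 and Cufflinks. Aligner, counter and annotation are not given in the sources used here, so reads shared between overlapping or antisense genes cannot be traced. By their names, 18 columns belong to 1 group each and 4 to none, which were not used. At E13.5 the labels list 3, 3, 3 and 4 samples where 2, 2, 2 and 3 columns were used, and 2 of these names (1 epithelium, 1 Notum mutant) lack a dash in their marker signs. Notum mutants B and C carry the same number in their names, and whether they are 1 embryo or litter is not stated. The study's methods pool 5 tracheas of a litter for a sorted sample and state at least 3 litters per genotype for animal experiments, but no source used here ties a library to a litter, so p-values measure the spread between these libraries.

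Entries were summed per symbol (9286 symbols had several) and rounded. Genes with at least 1 CPM in over 50% of the libraries of some group were tested in edgeR 4.0.16 (quasi-likelihood F test, TMM scaling, 2-sided, R 4.3.3), with Benjamini-Hochberg adjustment over all genes tested. The 3 sorted control populations shared 1 fit, and the other comparisons had a fit each. The SE of a log2 fold change is its size over the square root of F. Single entries were fitted likewise, and their use within a symbol with edgeR's diffSpliceDGE. No pair of libraries of a group repeated its counts (chi-square of at least 19.9 per gene). The column numbers of 4 E11.5 controls and 4 mutants are shared. Deviations of same-numbered libraries from their group means correlated at 0.101 to 0.528 across genes. Of the 4 mutants, 3 correlated best with the control of their own number, and mutant A did not. The numbers were taken as a possible pairing, and a fit with that block was run as an alternative to the unpaired fit. Gene positions and transcript lengths came from GENCODE M21 on GRCm38. Sequences of the receptor forms are not reported here. The fits were tested on simulated data with planted 4-fold changes only, which does not show how they treat smaller differences.

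The genes named are the 10 members, up to 3 genes per pathway list and comparison (those passing with the largest change, or those with the smallest p) and the 3 genes most like Fgf10, Fgf18, Fgfr2 and Etv5. Members and lists were chosen with earlier results of these data known. Alternatives were DESeq2 1.42.0, its size factors, library size alone, no filter, a minimum of 10 counts, the highest entry per symbol, a date term, the block, all 18 libraries in 1 fit and leaving out each library.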

Additional observations from a re-analysis of the deposited data

Results flagged for a closer look

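Fgf7 in E11.5 control E, at 3.905 CPM, lay far from the other controls of its group, of which the next was 1.00 CPM. The gap was 0.773 of the group's range. Of 20 checks of a member in an E11.5 group this was the 1 that stood out, where chance gives about 1 in 20. Control E was the shallowest library, with 6880660 counts.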

How the results depend on the processing

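Over 50 log2 differences of members and 719 alternative values of them, 637 kept their direction and their side of the threshold, 5 kept their direction and lost the call, 29 kept it and gained a call, and 48 changed sign, none of them in a called difference. Unless a value shows a cause, the cause was not tested.

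The number of members called was 0 between epithelium and muscle, and became 2 with DESeq2, 3 with no filter, 3 with all 18 libraries in 1 fit, and 0 to 1 when 1 library was left out (1 without epithelium A). Between epithelium and chondroblasts it was 0, and became 1 with DESeq2, 2 with no filter, 1 with a date term, 3 with all 18 libraries, and 0 to 1 when 1 library was left out (1 without epithelium A). Between muscle and chondroblasts it was 0, and became 1 with no filter. For the Notum mutant it was 0, and became 2 with DESeq2, 4 with a date term (Fgf9, Fgfr3, Fgfr4 and Etv5), which leaves control chondroblast B alone against the mutants, and 0 to 3 when 1 library was left out (3 without control chondroblast A). The added call of Fgf9 rests on 1 count in control B. For the stage comparison it was 3, became 5 with DESeq2 and ran from 2 to 4 when 1 library was left out, and Fgfr2 lost its call without control chondroblast B (0.86) or E11.5 control A, C or D (1.79 to 1.89) and with library size alone (1.82, edgeR adjusted p = 0.0530). Over all genes, edgeR and DESeq2 called 490 and 1827 between epithelium and muscle, and 375 and 1554 between epithelium and chondroblasts. They called 18 and 255 between muscle and chondroblasts, 0 and 526 for Notum, 2 and 40 for Wnt5a, and 1835 and 3493 for the stage comparison. Over the alternatives that kept all libraries, genes called ran from 398 to 3576, 265 to 2961 and 14 to 532 in the 3 sorted contrasts. The members called are to be read against these totals and are not a result about the members. The date term gave 2604 for Notum.

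With the highest entry per symbol, Fgfr2 changed sign between epithelium and muscle (-0.073) and between epithelium and chondroblasts (-0.60), where that choice drops the entry highest in epithelium. Fgfr3 did so between epithelium and chondroblasts (-0.76), Fgf18 between muscle and chondroblasts (-0.20) and in the stage comparison (0.21), and Fgfr1 and Fgfr3 for Wnt5a (-0.16 and -0.23). With library size alone the sign changed for Fgfr1 in the Notum mutant (0.029) and Fgfr2 in the Wnt5a mutant (0.029), with the date term for Fgfr2 (-0.24) and Spry2 (0.39) in the Notum mutant, and with no filter for Fgf18 in the stage comparison (0.00092). The block by column number in the Wnt5a comparison, the paired analysis, changed the sign of Fgfr1 (-0.22) and Fgfr3 (-0.018), and it changed no call of a member. For the sorted control populations, whose columns carry no replicate number, the pairing by date (the date term) added the call of Fgfr1 between epithelium and chondroblasts (-1.72, edgeR adjusted p = 0.04135) and changed no other call of a member there.

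When 1 library was left out, differences near 0 spanned it. Between epithelium and muscle this held for Fgf18 (-2.23 to 0.27). Between epithelium and chondroblasts it held for Fgf18 (-2.17 to 0.31), Fgfr2 (-0.26 to 1.34), Fgfr3 (-0.21 to 0.31) and Spry2 (-0.039 to 1.19). Between muscle and chondroblasts it held for Fgf18 (-0.46 to 0.74), Fgfr1 (-0.82 to 0.13) and Fgfr2 (-1.12 to 0.48). In the Notum mutant it held for Fgf9 (-0.56 to 3.97), Fgfr1 (-0.44 to 0.50), Fgfr2 (-0.24 to 1.36) and Spry2 (-0.85 to 0.39). In the Wnt5a mutant it held for Fgf10 (-0.056 to 0.27), Fgfr1 (-0.31 to 0.38), Fgfr2 (-0.29 to 0.30), Fgfr3 (-0.13 to 0.27), Etv5 (-0.56 to 0.049) and Spry2 (-0.12 to 0.29). In the stage comparison it held for Fgf18 (-0.76 to 0.44), Etv5 (-0.26 to 0.59) and Spry2 (-0.63 to 0.64). In epithelium B, Fgf10 and Fgfr4 had 0 counts against 41 and 58 in epithelium A, so their fitted differences carry wide errors.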

Other observations

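Fgfr3 was listed as 7 entries, and the third entry held 58.9% and 43.8% of its counts in the epithelial libraries, 0.001145% and 11.2% in muscle and 5.36% and 10.20% in control chondroblasts. In that share epithelium did not overlap the other cells, while in summed Fgfr3 it overlapped chondroblasts. Fitted singly with edgeR, the third entry was above muscle by 4.42 on the log2 scale (SE 1.79, adjusted p = 0.307) and above chondroblasts by 2.84 (SE 1.66, adjusted p = 0.557), and neither passed. The use of that entry relative to the others also did not pass (adjusted p = 1 for both). The entry was singled out after its values were seen, and it carries no transcript name.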
